A study of Mus musculus with 7 samples.

Results

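RNA from the plantaris of mice that had run for 4 weeks was compared on 1 array with RNA of untrained mice. The plantaris is a hindlimb muscle that helps to extend the ankle. The array, R4w, is 1 of 7 in the series, and its members are the probes with a usable ratio on it, taken as any value more than 1e-12 away from 0. They numbered 13228 of the 16273 probes (81.3%), and the other 3045 (18.7%) were listed at 0. Members were not chosen by the size of their ratio.

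In endurance training, skeletal muscle is used repeatedly over days to weeks. The known responses are more mitochondria, more capillaries around the fibres and a shift of fast fibres toward more oxidative types. A single run instead gives short waves of stress, metabolic and growth signals that return toward the resting level over hours. An array of trained muscle beside arrays of single runs therefore sets a long-term state beside short-term ones.

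Each array carried pooled RNA in its 2 dye channels. The Cy3 channel held the RNA of 8 untrained control mice, and the Cy5 channel that of 3 to 5 mice that ran. R3h was muscle taken at once after a 3 h run, and R12h the same after a 12 h run. P3h, P6h, P12h and P24h were taken 3, 6, 12 and 24 h after a 12 h run, and R4w after 4 weeks of running. All were plantaris of mice. The sources used here name no strain, age or sex, no kind of running, and no time between the last run and sampling on R4w. Every ratio sets a running pool against an untrained pool described in the same way. The 7 arrays are therefore taken to share their control, and values on them are given side by side. R4w has no replicate: no value below has an error or a test, and the spread between mice cannot be seen in a pool.

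Values are log2 ratios, in which 1 is a 2-fold ratio. A positive value is likely a higher signal in the running pool, from the dyes and because such ratios are mostly written red over green, but the direction is not stated in the labels and no dyes were swapped. No intensities were used here, so the brightness behind each ratio, and with it the precision of a single ratio, is unknown. Fewer cells of a type and less RNA per cell cannot be told apart in whole muscle.

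Gene names are labels of probes here, because the ratios of probes with the same name on R4w did not go together. Over 2383 pairs of members with the same symbol, counting names on at most 4 probes, the correlation across probes was r = 0.0038. Over 421 pairs with the same sequence accession it was -0.0792. The SD within same-symbol pairs was 0.312, against 0.347 over all members. In 55 same-symbol pairs 1 probe was at least 1 in size, and in 0 pairs both were. A statement on a named gene is therefore a statement on the probe that carries its name. Of the members, 11486 carried 1 symbol, 45 several and 1697 none, and those with several are called unnamed as well.

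The ratios of trained over untrained muscle were narrow. Their median was -0.01, the middle 50% lay between -0.18 and 0.15, and 91.5% were within 0.5 of 0. The SD was 0.347 on R4w, against 0.363 (P12h) to 0.513 (P24h) on the 6 single-run arrays. The median absolute deviation, which ignores the extremes, was 0.165 on R4w and 0.176 to 0.270 on the others. R4w thus had the smallest spread of the 7 arrays by both measures.

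Large ratios were few on R4w and mostly negative. A ratio of at least 1 was found for 34 members (0.257%), and a ratio of -1 or lower for 112 (0.847%). At 2 or more in size there were 4 high and 46 low members. Over the single-run arrays in the order of sampling, from R3h to P24h, the share of measured probes at 1 or above was 0.808%, 1.13%, 1.84%, 1.91%, 0.885% and 1.34%. The share at -1 or below was 2.44%, 1.89%, 0.542%, 1.78%, 0.966% and 3.38%. R4w had the smallest share of high probes of the 7 arrays, while 1 array, P3h, had a smaller share of low ones. These ranks go with the smaller spread of R4w. With every array multiplied to the same median absolute deviation, R4w had 106 probes at 1 or above (0.801%) and 184 at -1 or below (1.39%). P24h then had a smaller share of high probes (0.566%), and P3h (0.557%) and P12h (1.30%) smaller shares of low ones. The values ran on smoothly through the threshold. Just inside 1 lay an unnamed probe (1.004), Dock2 (1.006) and Cep131 (1.006), and just outside it Gmcl1 (0.976), Mapk8ip1 (0.993) and an unnamed probe (0.997). Just inside -1 lay an unnamed probe (-1.01), Nr2f1 (-1.01) and Spock1 (-1.004), and just outside it Tpt1 (-0.998), Gm14057 (-0.986) and 1700017G19Rik (-0.986).

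**Figure D1:**
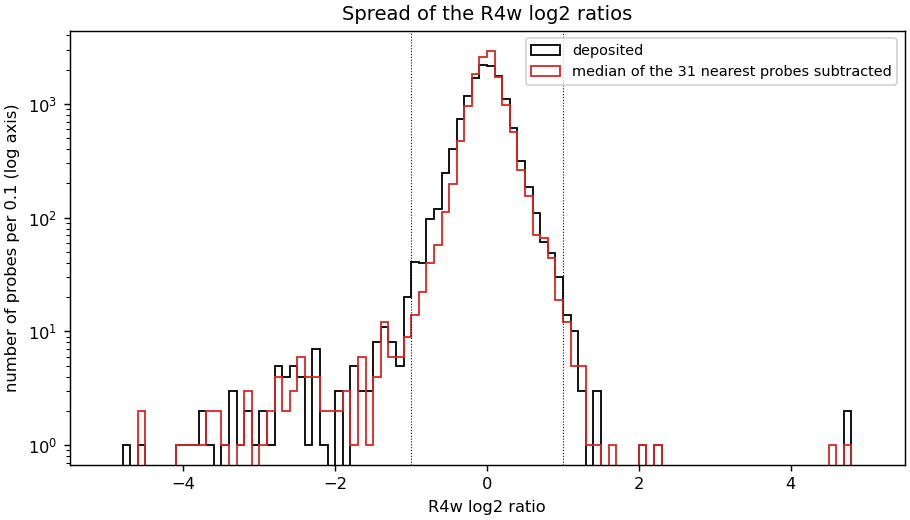
Histogram of the R4w log2 ratios of the 13228 members, in steps of 0.1, with the number of probes on a log axis. Black is the deposited ratio and red the ratio after subtracting the median of the 31 nearest probes; the dotted lines mark 1 and -1. The negative tail holds 112 probes at -1 or below and the positive tail 34 at 1 or above.

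The ratio on R4w depended on the probe number, which is the row name of the table. Members numbered below 7000 had a median of -0.17 (4960 probes, 76.1% of them negative). Members numbered 7000 or higher had a median of 0.07 (8268 probes, 37.0% negative). Of the low members, 60 were numbered below 7000 (1.21% of the members there) and 52 above (0.629%). Of the high members, 5 were numbered below 7000 (0.101%) and 29 above (0.351%). The difference of the medians, low numbers minus high numbers, was -0.23 on R4w, -0.20 on R3h and -0.18 on R12h, and between -0.04 and 0.04 on the other 4 arrays. Along ranges of 2000 numbers the R4w median went from -0.21 in the first range to 0.11 in the last.

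To set this course aside, the median of the 31 members nearest in number was subtracted from each ratio. The local median itself ranged from -0.50 to 0.30 (SD 0.147 over the members), and the SD of the ratios went from 0.347 to 0.310. The high members then numbered 29 (0.219%) and the low ones 95 (0.718%). Of the 34 high probes 22 stayed at 1 or above and 12 did not, all 12 numbered 7000 or higher, while 7 others came in, all numbered below 7000. Of the 112 low probes 91 stayed and 21 did not, all 21 numbered below 7000, while 4 came in. The largest ratio that dropped out was 1.15 on the high side and 1.27 in size on the low side, so every larger one stayed past the threshold. Whether the course along the numbers came from the place of the spots on the slide was not tested, since no layout was used here.

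**Figure D2:**
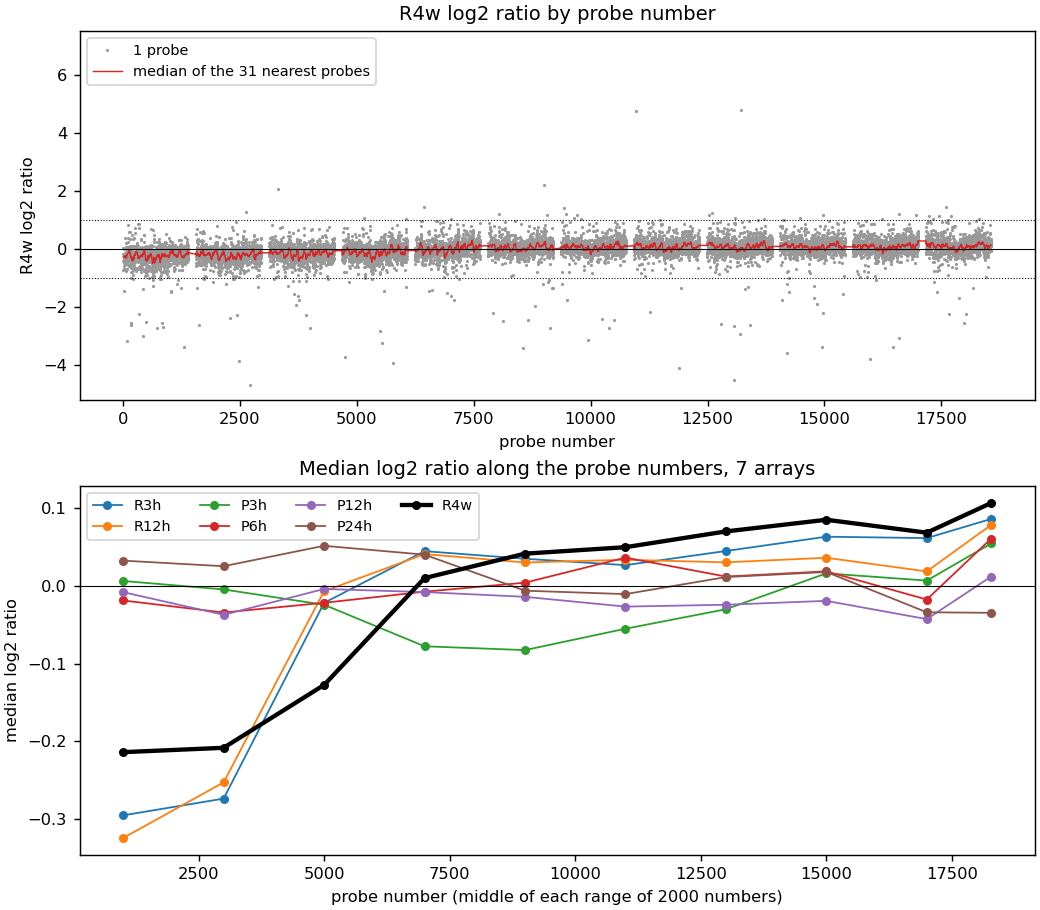
Upper panel: R4w log2 ratio of each member (grey) against its probe number, with the median of the 31 nearest probes in red and dotted lines at 1 and -1. Lower panel: median log2 ratio in ranges of 2000 probe numbers on the 7 arrays. R4w (black) rises from -0.21 to 0.11, and R3h and R12h are lowest below number 4000.

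The highest ratio on R4w belonged to a probe labelled Tomm7, a small subunit of the channel that brings proteins into mitochondria. It was 4.77 on R4w. On the arrays with a usable ratio it was 0.01 (R3h), 0.05 (R12h), -0.04 (P3h) and 0.13 (P12h), and it was at 0 on P6h and P24h. The trained array stood apart by over 4 units of log2 from every single-run value of this probe.

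Next came a probe labelled Myom1, at 4.76. Myom1 encodes myomesin, which links the thick filaments of the sarcomere at the M-band. This probe had no usable ratio on any single-run array, so R4w was its one measurement. It was 1 of 92 members measured on R4w alone. Those 92 had a median of 0.27 and an SD of 0.608, and 3 of them (3.26%) were at 1 or above, against 0.144% of the 9023 members measured on all 7 arrays.

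Then followed 3 probes that were high on every array. The probe labelled Usp15, an enzyme that removes ubiquitin, was 2.21 on R4w and 2.78, 2.89, 3.16, 3.23, 2.67 and 2.11 on R3h, R12h, P3h, P6h, P12h and P24h. The probe labelled Cxcl5, a chemokine that attracts neutrophils, was 2.05 on R4w and, in the same order, 2.56, 2.97, 3.06, 3.28, 2.99 and 2.50. The probe labelled Hbegf, a growth factor of the EGF family, was 1.45 on R4w and 1.79, 2.25, 2.53, 2.93, 2.18 and 1.64 on the single-run arrays. For Cxcl5 and Hbegf the R4w value was the lowest of the 7, and for Usp15 only P24h was lower. A second Cxcl5 probe was at -0.06 on R4w, and a second Hbegf probe, with the same accession, at 0.08.

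The probe labelled Ldha, the muscle-type subunit of lactate dehydrogenase that turns pyruvate into lactate, was 1.45 on R4w. On the single-run arrays it was 0.13 (R3h), 0.27 (R12h), 0.55 (P3h) and 0.01 (P12h), with no usable ratio on P6h and P24h. It was therefore higher after 4 weeks than on each of the 4 arrays that measured it.

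Of the remaining probes among the 10 highest, Serf1 was 1.40 on R4w and 0.80, 1.06 and 0.32 on R3h, R12h and P3h, with no ratio later. Entpd1, an enzyme on the cell surface that breaks down extracellular ATP, was 1.25 on R4w and 0.72, 0.73, 0.39 and 0.68 on R3h, R12h, P3h and P12h. Atrx, a chromatin remodeller, was 1.22 on R4w and between 0.69 (R12h) and 1.17 (P3h) on the single-run arrays. All 3 were positive wherever they were measured and highest on R4w, Atrx by 0.05 only. Picking probes for a high R4w ratio favours this, as it does for Tomm7 and Ldha above. Rinl was 1.26 on R4w and moved across 0 on the others, from -0.65 (R12h) to 1.13 (P12h).

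The 34 high probes had a median of 1.15 on R4w, and the upper quartile was 1.24, so most lay just past the threshold. Their medians on the single-run arrays were 0.74 (R3h, 28 measured), 0.69 (R12h, 27), 0.48 (P3h, 26), 0.87 (P6h, 18), 0.68 (P12h, 27) and 0.58 (P24h, 20). All these values share the control, and that R4w is the highest of the medians is fixed by the choice of probes. Of the 13 measured on all 7 arrays, R4w was above all 6 single-run values for 9, below all for 2 and within them for 2. The choice of probes also favours values above. Over the 9023 members measured on all 7 arrays, R4w was above all 6 for 14.8% and below all for 18.0%. The R4w value lay within 0.5 of the probe's single-run median for 16 of the 31 probes that had one, and 1 or more away for 8. High probes were measured less completely elsewhere. Of the 34, 52.9% (P6h) to 82.4% (R3h) had a ratio on another array, against 70.8% (P6h) to 97.3% (P3h) of all members. The low probes described below also fell short on P6h (55.4%) and on P24h (80.4%, against 83.8% of all members), but not on the others.

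The lowest ratio on R4w, -4.71, belonged to a probe labelled Lsr, a receptor that takes up lipoproteins. On the single-run arrays it was -4.90 (R3h), -4.63 (R12h), -0.96 (P3h), -4.47 (P6h), -3.40 (P12h) and -5.18 (P24h). It was far below 0 on most arrays and nearest 0 on P3h.

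The next probes were also far below 0 on most arrays. Zfp110, a zinc finger protein, was -4.52 on R4w and -4.70, -4.32, -1.03, -2.94 and -5.53 on R3h, R12h, P3h, P12h and P24h, with no ratio on P6h. Srp54b, a subunit of the particle that brings secreted proteins to the endoplasmic reticulum, was -4.10 on R4w and -4.41, -3.96, -0.83, -4.78, -2.98 and -4.48 on the 6 single-run arrays. Rad54l, a DNA repair protein of homologous recombination, was -3.71 on R4w and -3.93, -3.51, -0.72, -4.64, -2.68 and -3.79. In each of these P3h was the array nearest 0, and R4w lay between R12h and R3h.

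Ubash3a, which dampens T cell receptor signals, was -3.93 on R4w, between -4.09 and -2.86 on R3h, R12h and P12h, and -0.62 on P3h. Sike1, an inhibitor of antiviral signalling, was -3.85 on R4w, between -4.34 and -2.85 on 5 single-run arrays, and -0.63 on P3h. Large2, which adds sugars to dystroglycan, was -3.41 on R4w, between -3.75 and -2.37 on R3h, R12h and P12h, and -0.89 on P3h. P3h was again the array nearest 0 for all 3, but these values were still below the lower quartile of all P3h ratios (-0.21).

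Dlg3, a scaffold protein of cell junctions, was -3.60 on R4w, between -4.64 and -3.36 on 5 single-run arrays and -0.08 on P3h. An unnamed probe numbered 16465 was -3.40 on R4w, between -3.94 and -2.58 on 5 arrays and -0.23 on P3h. Cib1, a calcium-binding partner of integrins, differed from the rest: it was -3.78 on R4w, -3.82 on R3h and -2.77 on P12h, but 0.12 on R12h as well as -0.66 on P3h. Second probes of these names were not low on R4w: Srp54b was at 0.20, Sike1 (with the same accession) at 0.04 and Dlg3 at 0.21.

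Over the 112 low probes the R4w median was -1.62. The single-run medians were -2.16 (R3h, 110 measured), -1.95 (R12h, 108), -0.51 (P3h, 111), -2.04 (P6h, 62), -1.59 (P12h, 108) and -2.06 (P24h, 90). P3h was higher than R4w for 110 of the 111 probes measured on both, by a median of 1.21. Of the 111, 66 differed by 1 or more in size. Choosing probes for a low R4w ratio favours a higher value on any other array. The probes low after 4 weeks were thus mostly low after single runs too, though less so 3 h after the run. Since the control pool is part of all 7 ratios, its part in these values cannot be told apart from that of running. Of the 60 measured on all 7 arrays, R4w was within the single-run range for 51, below all 6 for 9 and above all for 0. Over the 9023 members measured on all 7 arrays, R4w was below all 6 for 18.0% and above all for 14.8%. Choosing probes for a low R4w ratio favours values below the range and works against values above it. The R4w value lay within 0.5 of the single-run median for 73 of the 112, and 1 or more away for 10.

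**Figure D3:**
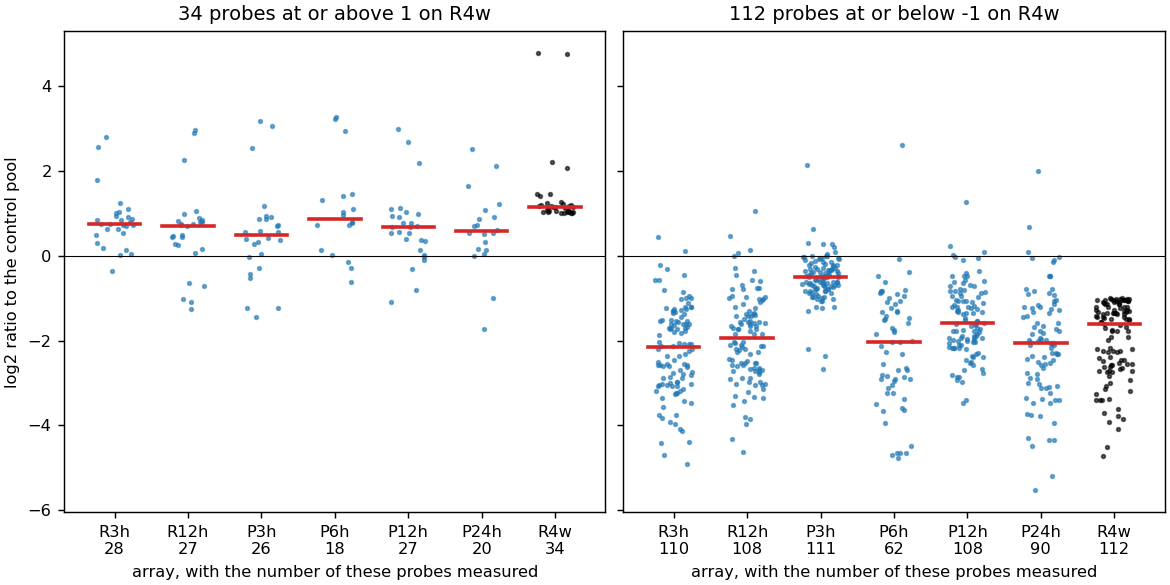
Log2 ratio to the control pool of the 34 probes at or above 1 on R4w (left) and the 112 at or below -1 (right) on each array; each point is 1 probe, red bars are medians, and the number measured stands under each array. R4w is fixed past the threshold by the choice of probes. The left medians on single-run arrays lie between 0.48 and 0.87. On the right P3h (median -0.51) lies above the rest.

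If the control pool was the same on all arrays, its RNA drops out of the difference between R4w and a single-run array. What differs between the arrays themselves stays in. For the 9023 members measured on all 7 arrays, R4w minus the median of the 6 single-run values had a median of -0.02 and an SD of 0.332. It was 1 or more for 27 probes and -1 or lower for 94. It also kept part of the course along the numbers, with a median of -0.12 below number 7000 and 0.04 from there on.

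R4w was above all 6 single-run values for 1336 of the 9023 (14.8%) and below all 6 for 1625 (18.0%). The balance of the 2 counts turned with the probe number. Below number 7000, 250 of 3642 were above (6.86%) and 915 below (25.1%), and from there on 1086 of 5381 were above (20.2%) and 710 below (13.2%). With the local median subtracted on every array, 1401 were above and 1643 below. Each array was set in the same way against the other 6. Outside their range lay 32.8% of probes on R4w, 17.6% (P12h) to 26.8% (P3h) on 5 of the single-run arrays and 52.9% on P24h. For each probe 1 array is highest and 1 lowest, so shares of this kind arise in any set of 7 arrays. With the deposited ratios, R4w left the range of the others more often than all arrays but P24h. This ranking was not repeated after local subtraction. By a margin of 1 or more, R4w was above all 6 for 1 probe (0.0111%) and below all 6 for 23 (0.255%). The only other array with any probe 1 or more below the rest was P24h, with 85.

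The 1 probe above by that margin was labelled Mrpl13, a protein of the mitochondrial ribosome. It was 0.63 on R4w and -0.58, -1.60, -1.91, -1.97, -0.92 and -1.71 on R3h, R12h, P3h, P6h, P12h and P24h. The gap between R4w and the highest single-run value, R3h, was 1.21.

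The next probes above the range had smaller gaps. An unnamed probe numbered 17704 was 1.14 on R4w against 0.17 at most (R3h) and -1.72 at least (P24h). An unnamed probe numbered 842 was 0.17 on R4w and between -0.98 and -0.65 on all single-run arrays. Igkv19-93, a variable segment of the immunoglobulin kappa chain, was 1.06 on R4w and between -0.37 and 0.25 on the others. Mrc2, a receptor that takes up collagen, was 0.61 on R4w and between -1.11 and -0.17 on the others. For 842 and Mrc2 all 6 single-run ratios were negative and the trained one positive, and a second Mrc2 probe was at -0.17 on R4w.

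The 23 probes below the range by 1 or more were picked for an R4w value under all single-run values. Since most R4w ratios lay near 0, this choice favours high single-run ratios. Over the 23, the single-run medians ranged from 0.67 to 3.88 (median 2.31), and the R4w values from -1.37 to 0.71 (median 0.03). All 6 single-run ratios were positive for all 23 and at 1 or above for 15. On R4w 14 of the 23 were within 0.5 of 0, beside 91.5% of all members. Of the 23, 11 were negative and 1 was at -1 or below, beside 51.6% and 0.847% of all members.

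The widest gap belonged to the probe labelled Slc6a2, the transporter that returns noradrenaline to nerve endings. It was -0.50 on R4w and 1.93, 2.005, 2.08, 2.28, 1.94 and 2.07 on R3h, R12h, P3h, P6h, P12h and P24h. The 6 single-run values were within 0.4 of each other, and the trained one was 2.42 below the lowest. Other Slc6a2 probes were at -0.08 and 0.14 on R4w.

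Tctex1d1, named for a light chain of dynein, was 0.45 on R4w and 2.74 (P24h) to 4.18 (P3h) on the others. Cds2, an enzyme of phospholipid synthesis, was 0.68 on R4w and 2.88 (P24h) to 4.45 (P3h) on the others. Bckdk, the kinase that switches off the breakdown of branched-chain amino acids, was 0.15 on R4w and 1.86 (R3h) to 3.74 (P3h) on the others. All 3 were far above 0 on each single-run array and highest on P3h. The RIKEN clone 2900055J20Rik went further down, to -1.37 on R4w, from 0.44 (R3h) to 2.61 (P6h) after single runs.

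**Figure D4:**
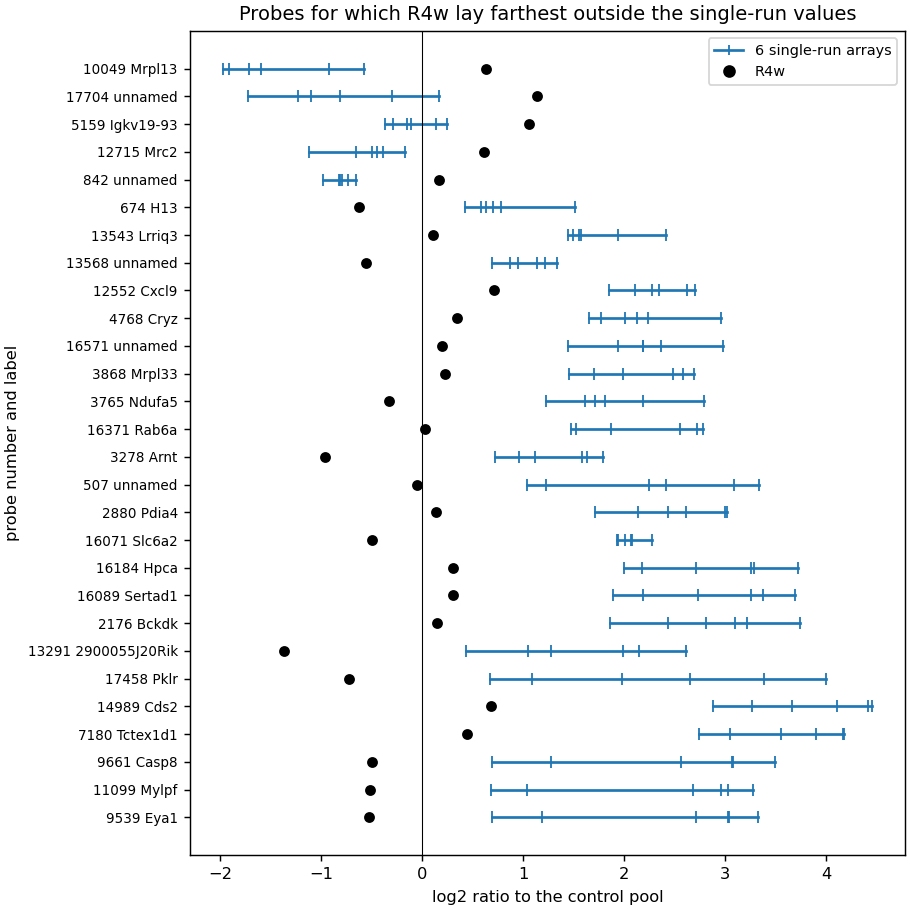
The 5 probes for which R4w (black point) lay farthest above the highest of the 6 single-run log2 ratios, and the 23 for which it lay 1 or more below the lowest; blue ticks are the 6 single-run arrays and the line their range. Most black points of the lower group lie near 0, while the blue ranges reach up to 4.45, which the choice of probes favours.

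The probes were also read through 13 lists of gene names that fit a trained muscle, ordered here from energy supply to growth. Together the lists held 333 measured probes, counting a probe once per list. Of these, 2 were at 1 or above and 2 at -1 or below (0.601% each), beside 0.257% and 0.847% of all members. The list medians lay between -0.16 and 0.07, against -0.01 for all members. After the local median was subtracted, 6 list medians turned sign and 1, that of the capillary names, went to 0. Those that turned were the citric acid cycle (to 0.04), mitochondrial biogenesis (-0.03), glycolysis (0.0029), slow fibre (-0.0026), extracellular matrix (0.06) and antioxidant lists (-0.02). No direction is therefore read from these 7 medians. Each list below is described by its probes, whose names the values did not bear out.

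Of the oxidative phosphorylation names, the subunits of the respiratory chain and ATP synthase, 30 of 34 probes had a ratio. Their median was -0.11, and 22 were negative, beside 51.6% of all members (76.1% below number 7000 and 37.0% above). Of the 30, 0 were at 1 or above and 1 was at -1 or below. That 1 was Cycs, cytochrome c, at -1.44 on R4w and -1.71, -0.49 and -1.28 on R3h, P3h and P12h. The highest was Atp5pb at 0.62. After the local median was subtracted the list median was -0.03.

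The citric acid cycle names, with the pyruvate dehydrogenase complex and its kinases, had a median of -0.05 over 15 of 18 probes, and 0 were past 1 in either direction. The highest was Pdk2, a kinase that switches off pyruvate dehydrogenase, at 0.82 on R4w and 0.36 (R12h) to 1.07 (P24h) on the single-run arrays; a second Pdk2 probe was at -0.09. The lowest was Pdha1 at -0.49. The names of fatty acid uptake and oxidation had a median of 0.01 over 19 of 24 probes, from Slc27a4 at -0.44 to Etfdh at 0.21, and this was the narrowest of the lists. None of its probes reached 1 in size.

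The regulators of mitochondrial biogenesis had a median of 0.04 over 15 of 20 probes, with 0 past 1. They ran from Mfn1, which fuses mitochondria, at -0.69 to Tfb2m, a mitochondrial transcription factor, at 0.43. The probe of Ppargc1a, the coactivator that drives mitochondrial genes in exercise, was at -0.07 on R4w and between -0.04 and 0.46 on the single-run arrays.

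For glucose uptake, glycolysis and glycogen, 39 of 46 probes had a ratio, and their median was -0.16. Most of the weight came from repeated spots of the Gapdh accession, of which 21 of 24 were measured, with a median of -0.34, a range of -0.72 to 0.23 and an SD of 0.231. Those spots are numbered 1149 to 2865, and the 231 members around them had a median of -0.23. After the local median was subtracted, the Gapdh spots had a median of -0.10. Taken over symbols in place of probes, the list median was 0.13, so its sign turned with the weight given to Gapdh. The probe of Ldha, given above, was the only one of the list at 1 or above, and 0 were at -1 or below.

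The contractile lists were close to 0. Slow and oxidative fibre names had a median of 0.03 over 16 of 22 probes, from Tnnt1, slow troponin T, at -0.74 to Myh7, the slow myosin heavy chain, at 0.47. Myh7 was 0.42 (P12h) to 1.57 (P3h) on the single-run arrays. Fast fibre names had a median of 0.04 over 15 of 17 probes (-0.07 over symbols), from Mylpf, the fast regulatory light chain, at -0.52 to Tnni2, fast troponin I, at 0.43. Neither list had a probe past 1. Myosin heavy chains of the faster types were at 0.11 (Myh2), 0.25 (Myh1) and -0.13 (Myh4), chosen after their values were seen.

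Shared sarcomere and calcium handling names had a median of 0.05 over 39 of 48 probes. Apart from Myom1 at 4.76, they lay between Ldb3, a protein of the Z-disc, at -0.34 and Tmod4, which caps thin filaments, at 0.64. Myom1 was thus the only probe of the list at 1 or above, and 0 were at -1 or below.

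Names of capillary growth and the endothelium had a median of -0.06 over 27 of 39 probes, with 0 past 1. They ran from Angpt1, a ligand that steadies vessels, at -0.94 to Nrp1, a co-receptor for VEGF, at 0.54. Angpt1 was between -1.99 and -1.40 on the 4 single-run arrays that measured it. Extracellular matrix names had a median of -0.14 over 24 of 31 probes. The highest was Nid1 at 0.50. The 1 probe past -1 was Lum, a small proteoglycan of collagen fibrils, at -2.63 on R4w, between -2.86 and -2.10 on 4 single-run arrays and 0.28 on P3h.

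Growth, myogenesis and fibre type regulators had a median of -0.09 over 26 of 32 probes, 20 of them negative (beside 51.6% of all members), and the median was -0.09 after local subtraction as well. They ran from Eya1, a transcriptional coactivator of fast fibre genes, at -0.52 to Akt2, an insulin-signalling kinase, at 0.27, and 0 were past 1. Antioxidant and stress proteins had a median of 0.07 over 26 of 37 probes, from Gsr, glutathione reductase, at -0.53 to Hspd1, a mitochondrial chaperone, at 0.49, and 0 were past 1. Cell cycle names had a median of -0.02 over 42 of 52 probes, with 0 past 1. Among these, Cdkn1c, an inhibitor of cyclin-dependent kinases, was highest at 0.89 on R4w and negative on the 5 single-run arrays that measured it (-0.77 to -0.25). Cdkn1a, a related inhibitor, was lowest at -0.58 on R4w, and lower still on every single-run array, from -0.66 (R3h) to -2.66 (P24h). Other Cdkn1a probes were at -0.46 and 0.04 on R4w.

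**Figure D5:**
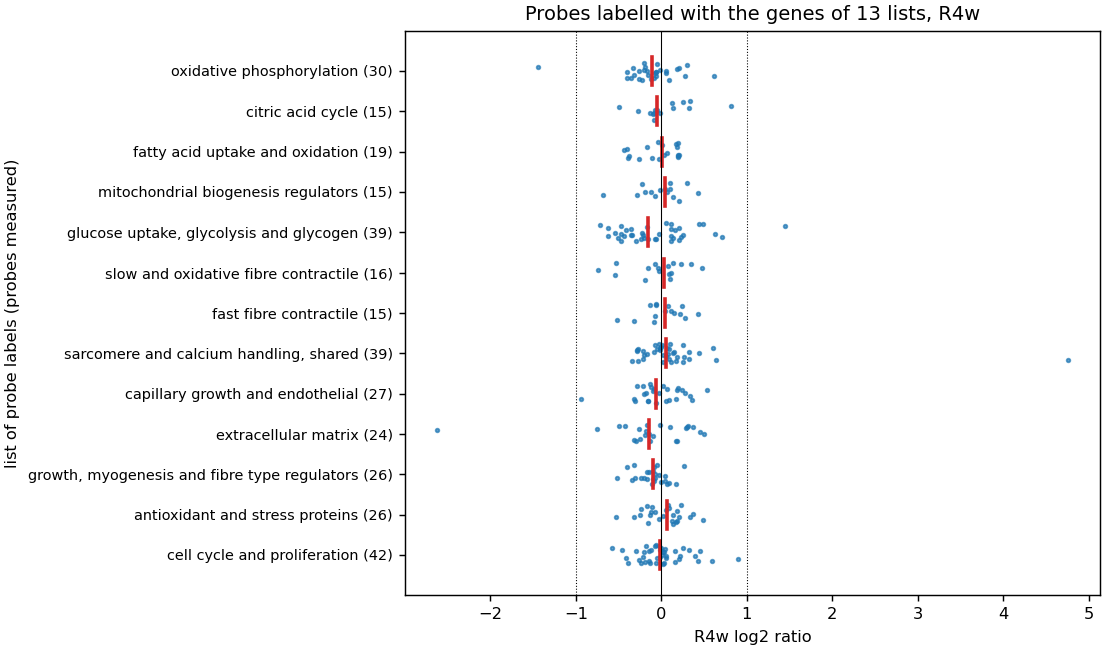
R4w log2 ratio of each measured probe in 13 lists of gene names; each point is 1 probe, red bars are list medians and dotted lines mark 1 and -1. The medians lie between -0.16 and 0.07, and 4 probes are past the lines.

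Markers of the muscle and of other cell types it can hold were read in the same way. The skeletal muscle fibre markers were measured on 15 of 18 probes (11 of 13 symbols), with a median of 0.09 and a range of -0.52 to 0.43; a ratio gives no level, so the tissue itself could not be checked by it. Macrophage and leukocyte markers had a median of 0.05 over 16 of 19 probes, with 1 past -1, C1qa, a chain of complement C1q, at -2.62 on R4w, -1.06 on P3h and between -3.06 and -1.94 on the other 5. Fibroblast markers had a median of -0.14 over 7 of 8 probes and endothelial ones -0.09 over 6 of 9. Adipocyte (-0.01, 7 of 10 probes), erythroid (-0.02, 6 of 8) and Schwann cell markers (-0.05, 9 of 11) had medians near 0, with 0 probes past 1. After the local median was subtracted, the endothelial and erythroid medians turned sign, each to 0.03. Those of the other lists were then 0.10 (muscle fibre), 0.000225 (macrophage and leukocyte), -0.05 (fibroblast), 0 (adipocyte) and -0.05 (Schwann cell). In each of the 7 marker lists at most 1 probe was past 1 in size, and the part of other cells in the ratios was not tested.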

How the data were processed

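The authors deposited 1 value per probe and array. These were used as log2 ratios of the Cy5 over the Cy3 channel, with the channels' contents per the labels. Base 2 was settled from values within 1e-12 of 0 on R12h, P3h and P6h (1 each) and carried to R4w. The sources used here state no background correction, centring or direction. Values within 1e-12 of 0 were left out. Names came from the platform annotation, with 11448 of 11486 single symbols matched to RefSeq by gene ID.

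By rule, the text names the 10 highest and 10 lowest probes, the 3 on each side of the thresholds, the 5 farthest outside the single-run range each way and the ends of each list. The members and lists were chosen with earlier results of these data known. No test was made. Local medians used 31 or 101 probes. Other alternatives were zeros kept, median centring, a common spread, symbols averaged, probes measured on all 7 arrays and each single-run array left out. Scripts (Python 3.11.15, pandas 2.3.3, numpy 2.4.6, matplotlib 3.10.9) were tested on simulated data.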

Additional observations from a re-analysis of the deposited data

Results flagged for a closer look

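Probes were picked out here for an opposite sign. On each of them every value was at least 0.5 in size, and the R4w ratio had one sign while all 6 single-run ratios had the other. The size was set after seeing the data, and the difference was not tested. Of the 9023 members measured on all 7 arrays, 1 was positive and 5 were negative on R4w in this way; at any size 280 were positive and 427 negative.

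Mrpl13 was positive on R4w at 0.63 and between -1.97 and -0.58 on the single-run arrays. Arnt, the partner of the hypoxia-inducible factors, was at -0.96 on R4w and between 0.72 and 1.79 on the others. Pklr, the pyruvate kinase of liver and red cells, was at -0.72 on R4w; on the single-run arrays it ran from 4.00 on R3h to 0.67 on P12h. An unnamed probe numbered 13568 was at -0.55 on R4w and between 0.69 and 1.33 on the others.

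Eya1 and Mylpf had nearly the same values on all 7 arrays. Eya1 was at -0.52 on R4w and at 3.33, 3.04, 3.03, 2.72, 1.19 and 0.69 on R3h, R12h, P3h, P6h, P12h and P24h. Mylpf was at -0.52 on R4w and at 3.27, 3.03, 2.96, 2.68, 1.04 and 0.68. The largest difference between these 2 probes on any array was 0.145, and their numbers are 1560 apart. A probe labelled Casp8 was close to both, but at -0.49 on R4w it missed the size of 0.5. It differed by at most 0.165 from Eya1, 122 numbers apart, and 0.24 from Mylpf, 1438 apart.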

How the results depend on the processing

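The SD of R4w, 0.347, was 0.313 with the zeros kept, 0.310 after the local median, 0.309 over probes measured on all 7 arrays and 0.314 over numbers from 7000 on. The 34 probes at 1 or above became 106 with every array brought to the same spread (R4w multiplied by 1.24) and 13 on all 7 arrays. The 112 at -1 or below became 184, 60 and, from number 7000 on, 52. Of the 5381 probes on all 7 arrays from number 7000 on, 710 were below all single runs (in place of 1625) and 1086 above, an alternative added after seeing the data. Leaving out 1 single-run array (without R3h to without P24h) gave 1444 to 1783 probes above and 1675 to 2030 below. Comparing with fewer arrays can only raise these 2 counts. The cause of the other changes was not tested, but fewer probes enter the subsets by construction. Other settings kept the 34, 112, 1336 and 1625 within 1.5 times. Of 13 list medians 7 were below 0, and 6 after the local median. The 30 probes named as highest, lowest or farthest outside the single-run range were followed under both windows. Of these 0 changed sign, the 23 past 1 stayed past 1, and the largest move was 0.26. Other named probes were less steady under the smaller window. Of those just inside the thresholds, Dock2 (0.93), Cep131 (0.88), Spock1 (-0.82) and the unnamed ones (0.95 and -0.80) fell short of 1 in size. Nr2f1 (-1.11) did not. Ppargc1a changed sign, from -0.07 to 0.01. No paired analysis was possible because each condition has 1 array. Without intensities, no depth can be set beside a ratio.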

Other observations

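A probe labelled Fndc5, the precursor of irisin, a muscle factor linked to endurance training, was low on R4w at -2.71. It was -2.88, -2.53, -0.17, -2.04, -1.71 and -2.01 on R3h, R12h, P3h, P6h, P12h and P24h. P3h was the array nearest 0. It was chosen after its value was seen.

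Several probes with different names had nearly the same values on all 7 arrays. Of 96 probes that were past 1 on R4w or 1 or more outside the single-run range, and measured on all 7 arrays, 12 of the 4560 pairs agreed within 0.25 on every array. These pairs held 14 probes, and 0 of them shared a symbol. Stx7 and Zfp326, 1560 numbers apart, were at -1.02 and -1.02 on R4w and differed by at most 0.0562 on any array. Dock2 and Nedd4l, at 1.01 and 1.04, differed by at most 0.112, and Sertad1 and Hpca, at 0.30 and 0.31, by at most 0.116. The numbers of these 2 pairs are 4755 and 95 apart, and over the 12 pairs the distance ran from 31 to 13913. Of 173 pairs with the same symbol and a value past 1 on any array, 0 agreed within 0.25, and the closest differed by 0.494 on 1 array. These 173 pairs were chosen by another rule than the 4560. A share as small as 12 of 4560 also leaves 0 of 173 unremarkable. Whether probes of the same name agree less often than others cannot be read from these counts.

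The probe numbers hold 11 gaps of 156 to 158 missing numbers, which part them into 12 stretches that begin about 1560 numbers apart. On R4w, after the local median was subtracted and values were limited to 1 in size, probes 3120 numbers apart correlated at r = 0.125 over 9807 pairs. That was the highest of 9000 distances looked at, of which the middle 98% gave r between -0.0329 and 0.0356. At 6240 apart r was 0.0918 and at 1560 apart 0.0595, beside 0.0650 for probes with neighbouring numbers. On the other arrays r at 3120 ranged from 0.0448 (P3h) to 0.0820 (P6h). These correlations are across probes, which are not independent, and what probes at these distances share was not tested.

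On R4w 140 probes shared the size of their ratio with 1 other probe, in 70 pairs, of which 37 had opposite signs and 33 the same sign. The largest such size was 0.83.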
